A study of Rattus norvegicus with 4 samples.

Results

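Neurofilament genes and a few other genes known from neurons were followed in rat lens capsules after extracapsular lens extraction (ECLE), a cataract-type operation that empties the lens and leaves its capsule with lens epithelial cells (LECs) in the eye. The 8 genes were *Nefh*, *Nefm*, *Nefl*, *Ina*, *Prph*, *Gap43*, *Snhg11* and *Uchl1*, of 14217 genes with a single symbol on the array, and all of their 14 probe sets, of 31042, are described. *Nefh* and *Snhg11* were chosen because of their late rise on these same arrays, so their values are a description and carry no test. The 6 others are chains that neurofilaments share with *Nefh*, or genes widely used to recognize neurons.

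Total RNA was measured on 4 Affymetrix GeneChip rat arrays. Day 0 was 1 array of capsules from 7-week-old rats, taken as soon as surgery was complete. The group 1 W was 2 arrays, labeled biological replicates 1 and 2, of capsules taken 7 days after surgery at 8 weeks of age, and 2 W was 1 array taken at 14 days and 9 weeks of age. All rats were female albino SD rats operated on at 7 weeks of age, so day 0 had also undergone surgery, and time after surgery and age of the rat cannot be told apart. The methods speak of 3 samples per group on the arrays and of right eyes only, whereas the labels list 1, 2 and 1 arrays, and whether samples were pooled on an array is not stated. Any p-value below rests on the spread between the 2 arrays at 1 W.

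Neurofilaments are the intermediate filaments of axons and help to set axon caliber. They are copolymers of a light chain (*Nefl*), a medium chain (*Nefm*) and a heavy chain (*Nefh*), together with alpha-internexin (*Ina*) in central neurons or peripherin (*Prph*) in many peripheral ones. The heavy chain does not form filaments by itself and needs a lighter partner. The lens has intermediate filaments of its own, vimentin in its epithelium and the beaded filament proteins *Bfsp1* and *Bfsp2* in its fiber cells.

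Mean intensity per array lay between 165 and 244 and the median between 31.9 and 57.0, lowest at 2 W, so every array was divided by its mean and ratios to day 0 were taken on the log2 scale. After this scaling the median ratio of the 18625 probe sets at or above the level filter (the 40th percentile of mean log2 value) was -0.08 at 1 W and -0.26 at 2 W. The 3' to 5' signal ratio of the beta-actin control probe sets lay between 1.61 and 2.32, highest at day 0. For GAPDH it lay between 1.10 and 1.18, and for hexokinase between 1.47 and 1.93, highest in 1 W replicate 1. The arrays held transcripts of lens and of other eye tissue. *Cryaa*, the alpha A crystallin of the lens, had an intensity of 7430 at day 0, and *Sag*, the rod arrestin of photoreceptors, had 2765. The scaled levels of 13 photoreceptor genes summed to 63.5 at day 0, to 6.39 and 26.9 in the 1 W replicates, and to 8.46 at 2 W. These arrays are bulk tissue, in which fewer cells of a kind and less RNA per cell cannot be told apart.

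*Nefh*, the heavy chain, was the only neurofilament chain with every array after surgery above day 0. Its only probe set (1370815_at) had intensities of 145.7 at day 0, 409.6 and 369.5 in replicates 1 and 2 at 1 W, and 2258 at 2 W. The 2 arrays at 1 W were close to each other, and the 2 W array lay far above both. The ratio to day 0 was 3.16-fold and 2.95-fold in the 1 W replicates, a mean log2 ratio of 1.61 (SD 0.07, n = 2), and 22.95-fold at 2 W, a log2 ratio of 4.52 with no replicate. From 1 W to 2 W the level was 7.52-fold higher.

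**Figure D1:**
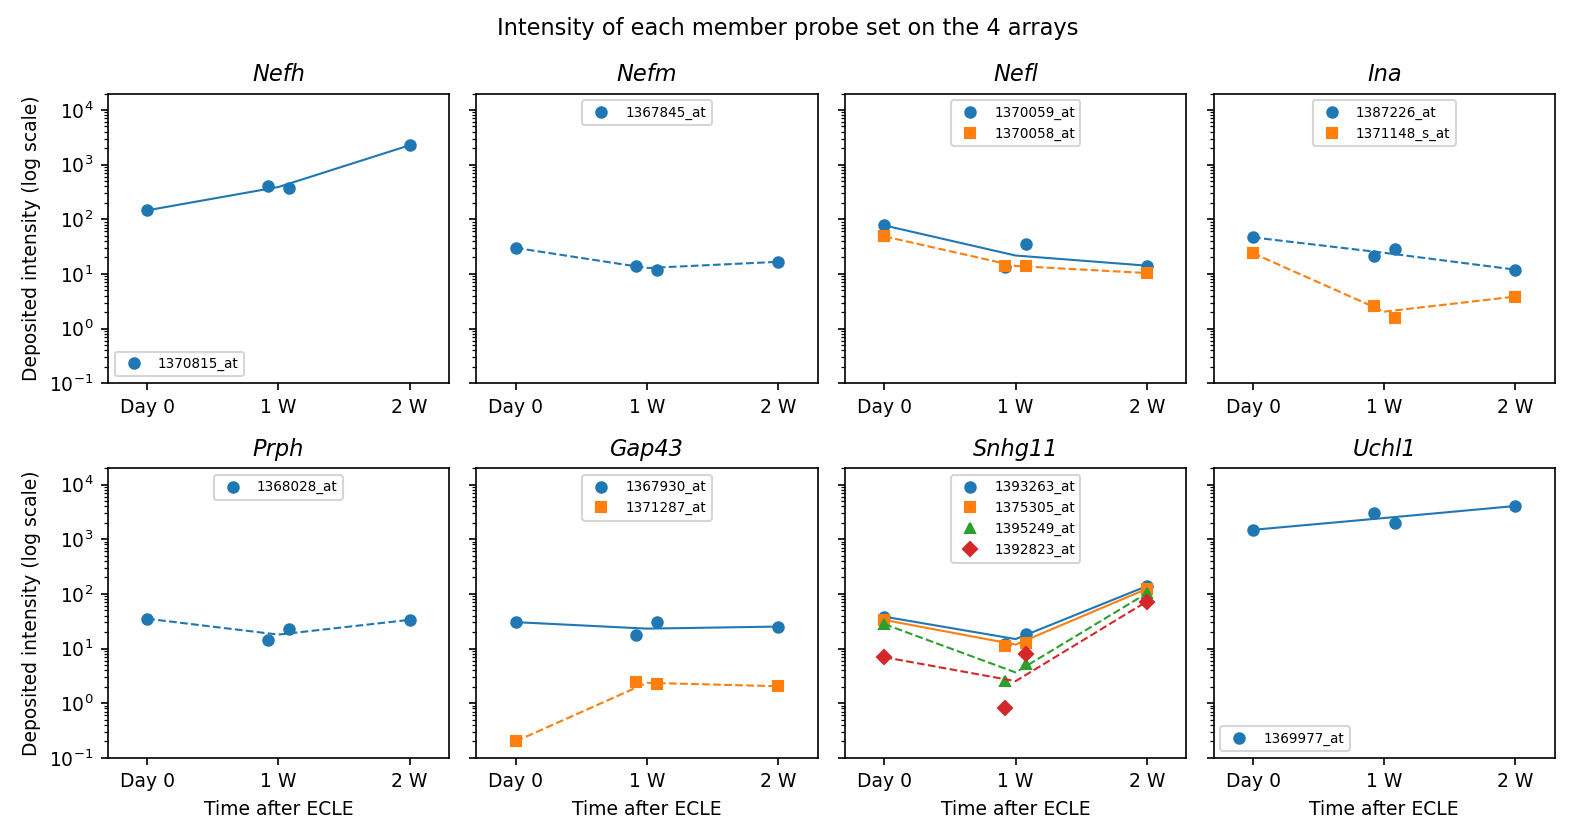
Deposited intensity (log scale) of every member probe set against time after ECLE, 1 panel per gene. Points are single arrays (at 1 W, replicate 1 is left and replicate 2 right), lines join day 0, the geometric mean at 1 W and 2 W, and dashed lines mark the 8 probe sets below the level filter; *Nefh* went from 145.7 to 2258, while the intensity of every other chain at 2 W was below that of day 0.

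The light and medium chains had lower values than day 0 on all 3 arrays after surgery, and the only probe set tested among them did not pass. *Nefl* was read by a pair of probe sets. The brighter (1370059_at) had intensities of 77.1 at day 0, 13.5 and 35.03 at 1 W, then 14.2 at 2 W, and the dimmer (1370058_at) had 48.6, 14.1 and 13.9, and 10.4. The log2 ratios at 2 W were -1.88 and -1.66, against 4.52 for the heavy chain on the same arrays. The brighter probe set was tested and did not pass at 1 W (log2 ratio -1.64, SE 0.75, limma adjusted p = 0.342) or at 2 W (SE 0.86, adjusted p = 0.227), and its 1 W replicates lay 1.43 log2 units apart. The summed scaled levels of photoreceptor genes were likewise highest at day 0 (63.5) and at 1 W lower in replicate 1 (6.39) than in replicate 2 (26.9). Whether the lower values of *Nefl* came from less retinal RNA was not tested. *Nefm*, the medium chain, had intensities of 29.9 at day 0, 13.7 and 12.0 at 1 W, and finally 16.6 at 2 W on its single probe set (1367845_at). Its log2 ratio was -1.03 at 1 W (SD 0.11, n = 2) and -0.28 at 2 W, the latter 0.04 with 75th percentile scaling. Its level was below the filter, so it was not tested.

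Alpha-internexin and peripherin, the other partners of the heavy chain, were below the level filter on all of their probe sets. *Ina* had intensities of 46.6 at day 0, 21.1 and 28.2 at 1 W, then 12.0 at 2 W on 1387226_at. On 1371148_s_at, whose suffix marks probes that match several transcripts, they were 23.9, then 2.64 and 1.58, then 3.86. Day 0 was the highest array on both probe sets, with log2 ratios at 2 W of -1.39 and -2.07. *Prph* had intensities of 35.03 at day 0, 14.0 and 23.0 at 1 W, and finally 33.4 at 2 W on 1368028_at. Both of its arrays at 1 W were lower than day 0, and at 2 W its intensity came close to that of day 0, a log2 ratio of 0.50 after scaling and -0.07 on the values as deposited. None of these 3 probe sets was tested. None of the 6 probe sets of the partner chains was over 2.0-fold at 1 W or at 2 W, where 9.47% and 13.0% of all probe sets were. On 6 probe sets this is near those shares and was not read as a result.

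*Gap43*, a protein of growth cones and regenerating axons, did not pass the test. Its brighter probe set (1367930_at) had intensities of 30.4 at day 0, 17.7 and 30.1 at 1 W, then 25.2 at 2 W. In intensity the 2 W array lay between both arrays at 1 W. The log2 ratio was -0.20 at 1 W (SE 0.57, limma adjusted p = 0.868) and 0.30 at 2 W (SE 0.65, adjusted p = 0.783), the latter -0.27 on the values as deposited. The other probe set (1371287_at) read 0.201 at day 0, 2.44 and 2.28 at 1 W, and finally 2.04 at 2 W, close to the bottom of the array's range. Its log2 ratio of 3.91 at 2 W became -0.04 once values were floored at the 20th percentile.

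*Uchl1*, a ubiquitin C-terminal hydrolase that is abundant in neurons and serves as a nerve stain, had a higher value on each array after surgery but did not pass the test. Its probe set (1369977_at) had intensities of 1485 at day 0, 2974 and 2004 at 1 W, then 4051 at 2 W. The 2 W array was above both arrays at 1 W. The ratio was 1.88-fold at 1 W (log2 0.91, SE 0.25, limma adjusted p = 0.214) and 4.04-fold at 2 W (log2 2.01, SE 0.29, adjusted p = 0.0589). Neither passed the threshold of 0.05, and the ratio of 2 W over 1 W (2.15-fold, adjusted p = 0.153) did not pass either. The 2 W result depended on the scaling. It passed with each array divided by its median (log2 2.29, adjusted p = 0.0134) or by its 75th percentile (log2 2.33, adjusted p = 0.0492) and on the values as deposited (log2 1.45, adjusted p = 0.02), but not with quantile scaling (log2 1.82, adjusted p = 0.0719). Over all alternatives its limma adjusted p lay between 0.0134 and 0.149.

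*Snhg11*, a spliced long noncoding RNA that hosts small nucleolar RNAs and is known from neurons, was lower at 1 W and higher at 2 W than at day 0. The brightest of its 4 probe sets (1393263_at) had intensities of 38.2 at day 0, 12.2 and 18.2 at 1 W, and finally 138.4 at 2 W. The next (1375305_at) had 33.3, then 11.2 and 12.4, then 123.5. On both, the 1 W arrays were the lowest and the 2 W array the highest. Both lay below the array median at day 0 (57.0) and at 1 W (45.2 and 46.7), and above it only at 2 W (31.9). The remaining pair was below the filter. The probe set 1395249_at had 27.9, then 2.54 and 5.24, then 102.4, and 1392823_at had 6.94, then 0.802 and 7.98, then 72.4.

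The mean log2 ratios of *Snhg11* at 1 W were -1.17, -1.30, -2.74 and -1.26 in this order, and at 2 W they were 2.42, 2.46, 2.44 and 3.95. With mean scaling, 4 of 4 probe sets were under 0.5-fold at 1 W and over 2.0-fold at 2 W. So were 189 of 31042 probe sets in all (0.609%). Because *Snhg11* was chosen for its late rise, this share does not measure how unusual its pattern is. With quantile scaling 1393263_at was not under 0.5-fold at 1 W (log2 ratio -0.98). Nor was 1392823_at with values floored at the 20th percentile (-0.12) or with a linear mean at 1 W (-0.45). The probe sets share the same RNA and the same 4 arrays and are not replicates of each other. The lower level at 1 W was uneven between replicates. In replicate 1 the ratio was under 0.5-fold on 4 of 4 probe sets, in replicate 2 on 2 of 4, and on 1392823_at replicate 2 lay above day 0 (log2 ratio 0.42). The level at 2 W was 12.0-fold and 13.6-fold that of 1 W on the brighter pair.

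**Figure D2:**
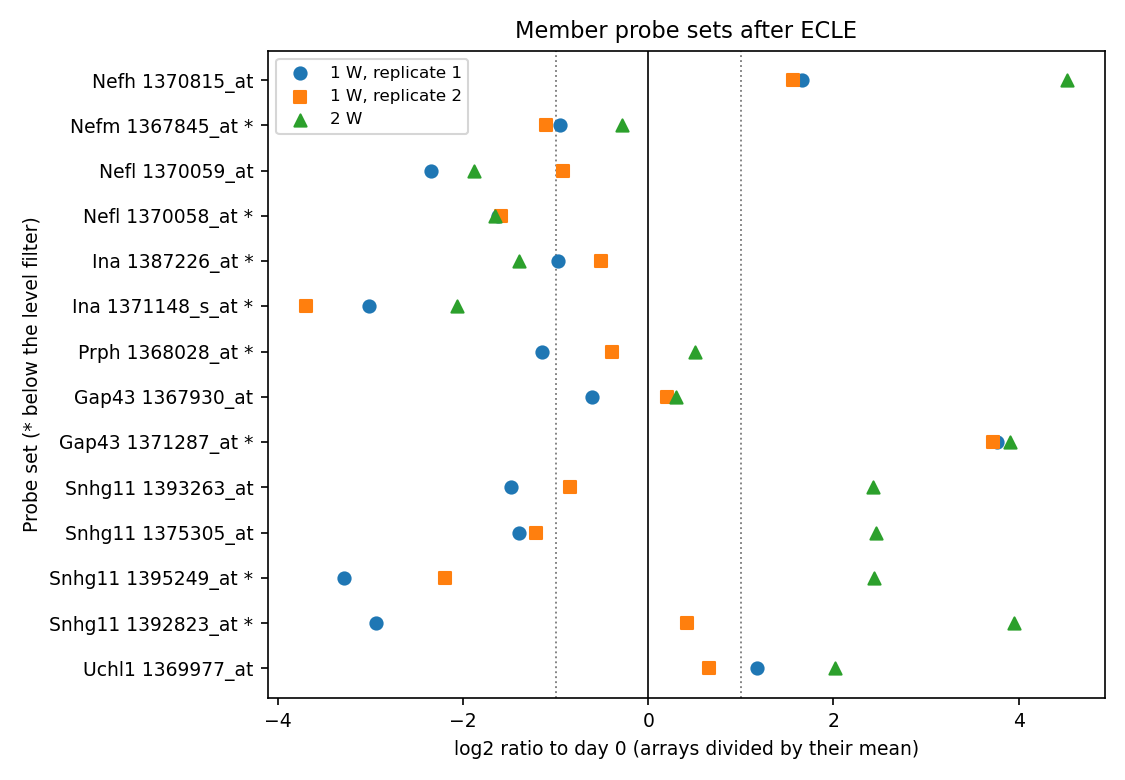
log2 ratio to day 0 of each member probe set on the 3 arrays after surgery, with each array divided by its mean (an asterisk marks a probe set below the level filter). *Nefh*, *Uchl1*, the 4 probe sets of *Snhg11* and the dim one of *Gap43* lay above 2 at 2 W, while *Nefl* and *Ina* lay below -1.

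Sequence before the start of transcription was available for 4 of the 8 members, *Snhg11*, *Uchl1*, *Ina* and *Prph* (RefSeq, rat assembly GRCr8, 250 bases before the start and 50 after it). Shown in the direction of the gene are *Snhg11* (chr3:167451022-167451321, plus strand), *Uchl1* (chr14:41849368-41849667, minus strand) and *Ina* (chr1:255837879-255838178, plus strand), members with higher levels at 2 W and a partner chain with a lower one. Capitals mark every match, on either strand, to the letters of a TATA box (TATAAA) or a GC box (GGGCGG).
Snhg11: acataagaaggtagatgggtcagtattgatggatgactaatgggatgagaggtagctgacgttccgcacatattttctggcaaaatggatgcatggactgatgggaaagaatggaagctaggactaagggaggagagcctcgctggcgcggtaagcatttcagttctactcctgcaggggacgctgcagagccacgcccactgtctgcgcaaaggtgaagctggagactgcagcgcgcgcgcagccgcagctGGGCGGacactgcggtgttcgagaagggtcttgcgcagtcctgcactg
Uchl1: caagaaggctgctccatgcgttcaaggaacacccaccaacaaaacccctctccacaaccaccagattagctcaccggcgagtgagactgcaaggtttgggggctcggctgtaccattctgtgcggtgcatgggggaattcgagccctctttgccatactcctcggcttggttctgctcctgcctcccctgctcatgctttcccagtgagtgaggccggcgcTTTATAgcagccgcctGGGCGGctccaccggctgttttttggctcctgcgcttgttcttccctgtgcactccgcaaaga
Ina: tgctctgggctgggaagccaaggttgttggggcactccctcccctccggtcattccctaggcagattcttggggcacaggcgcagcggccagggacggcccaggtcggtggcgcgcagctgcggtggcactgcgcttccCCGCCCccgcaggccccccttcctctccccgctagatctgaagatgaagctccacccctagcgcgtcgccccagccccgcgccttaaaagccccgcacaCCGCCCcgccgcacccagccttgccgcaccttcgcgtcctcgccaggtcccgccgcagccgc
Each of these held at least 1 GC box, as did 33.1% of 33469 promoters of the same length. In *Snhg11* it lay just past the start, at bases 2 to 7, and in *Uchl1* it lay before it, at -13 to -8. *Uchl1* held TATA box letters on its opposite strand at -29 to -24 and *Prph* on its own strand at -35 to -30, a motif found in 14.2% of promoters. The letters of a CCAAT box (CCAAT) and of the left (AGCACC) and right (GGACAG) core of RE1, the element read by the repressor *Rest*, were in none of the 4 windows, and were in 37.5%, 16.3% and 21.7% of all promoters. GC content was 56% in *Snhg11*, 58.7% in *Uchl1*, 64.3% in *Prph* and 71.7% in *Ina*, where the median of all was 51.7%. The windows held 17, 14, 13 and 28 CG pairs in this order, against a median of 7.

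Counted over the 6 genes not chosen by their values, 3 of 9 probe sets were at or above the filter and 0 of these 3 passed limma in any comparison, with 1 (*Uchl1*) at an unadjusted p under 0.05 in each. At that unadjusted p stood 17.9% of all tested probe sets at 1 W, 30.9% at 2 W and 21.9% for 2 W over 1 W. Over the whole array 9 of 18625 probe sets passed at 1 W (0.0483%), 9 at 2 W (0.0483%) and 0 between 2 W and 1 W (0%). At 1 W, 1 of the 9 was over 2.0-fold, the dim probe set of *Gap43*, where 9.47% of all probe sets were, and 4 were under 0.5-fold (the pair of *Nefl*, *Nefm* and 1 of *Ina*), where 12.8% were. At 2 W, 2 of the 9 were over 2.0-fold, *Uchl1* and that same dim probe set, where 13.0% of all were. The 4 under 0.5-fold at 2 W were the pairs of *Nefl* and *Ina*, where 19.0% of all were. With *Nefh* and *Snhg11* added, 7 of 14 probe sets were over 2.0-fold at 2 W, 5 of them chosen for it.

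Synaptic genes mostly had ratios below 0 at 2 W, and the lists of neuronal markers were mixed. Of 17 synaptic vesicle and release genes, 16 had a ratio below 0 at 2 W on the log2 scale (median -0.77). Over 2.0-fold were 0 and under 0.5-fold 7, where 12.0% and 14.7% of all genes were (median of all genes -0.16). With median scaling 4 were under 0.5-fold, and on the values as deposited 15 were. *Vamp2*, a vesicle protein of transmitter release, had a 1 W log2 ratio of -0.46 and a 2 W ratio of -0.77 (SE 0.27, limma adjusted p = 0.157), and *Nsf*, a factor of vesicle fusion, had -0.43 and -0.46. Of 9 measured retinal ganglion cell markers, 1 was over 2.0-fold and 3 under 0.5-fold at 2 W (median -0.55). That 1 was *Rbfox3*, the neuronal nuclear antigen, with 94.2 at day 0, 117.7 and 46.5 at 1 W, then 135.2 at 2 W, its 1 W arrays lying on either side of day 0. *Rbpms*, an RNA-binding protein of these cells, had 86.1 at day 0, then 212.7 and 90.2, then 82.3. Sensory nerve markers (0 over and 2 under, of 9) and autonomic nerve markers (2 and 2, of 11) had only 2 and 1 genes at or above the filter. Other retinal neurons had 4 over and 5 under of 13, and Schwann cell markers 4 over and 3 under of 12. Of 13 photoreceptor genes, 13 were under 0.5-fold at 1 W and at 2 W, where 8.36% and 14.7% of all genes were.

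The neuronal lists had no common direction. No probe set of the partner chains was over 2.0-fold at 2 W, where 13.0% of all probe sets were. For 6 probe sets this is near that share, and it was not read as a result. Of the 8 genes, *Nefh* and *Snhg11* were chosen for their late rise, and the other 6, *Uchl1* among them, were not chosen by their values. No cell type is assigned to the set. With mean scaling *Uchl1* did not pass the test. Of the partner chains, 1 of 6 probe sets was at or above the filter. Whether the RNA of *Nefh* came from nerve, retina or lens cells was not tested.

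Of 16 neuronal microtubule and growth cone genes, 7 were over 2.0-fold and 2 under 0.5-fold at 2 W (median 0.59), where 12.0% and 14.7% of all genes were, and on the values as deposited 4 were over and 7 under. *Marcks*, an actin-binding growth cone protein, had log2 ratios of 0.79 at 1 W and then 1.47 (SE 0.18, limma adjusted p = 0.0577), and *Dpysl2*, a tubulin-binding one, 0.18 and 0.41. The counts of the next lists stand against the same shares of all genes. Of 13 axon injury genes, 5 were over and 2 under (median 0.77). With median scaling 7 were over and 1 under, and on the values as deposited 3 and 3. *Ecel1* and *Sox11*, among those over with mean scaling, were below the filter. Of 12 axonal transport genes and neurofilament kinases, 1 was over and 0 under, and their median of -0.12 turned to 0.16 with median scaling. The kinesin *Kif5b* had log2 ratios of 0.04 and 0.24, and the dynein chain *Dync1i1* -0.88 and -0.43. Of 5 ubiquitin hydrolase and free ubiquitin genes, the relatives of *Uchl1*, 1 was over 2.0-fold at 2 W. It was *Uchl3* (log2 ratio 1.11, SE 0.16, adjusted p = 0.0602), while *Usp14* had 0.35. Only 2 snoRNA host genes other than *Snhg11* were measured, *Gas5* and *Snhg4*, whose log2 ratios were 1.18 and 0.79 at 1 W, where *Snhg11* was below 0. At 2 W they were 0.64 and 0.36, a median of 0.50 that turned to -0.07 on the values as deposited. Of 19 regulators of neuronal genes, 1 was over (*Sox11*, below the filter) and 7 under at 2 W. Of the same genes 4 were under with median scaling and 14 on the values as deposited. *Sox4* had a 2 W log2 ratio of -0.94 (SE 0.15, adjusted p = 0.0624) and *Hdac2* 0.03, and *Rest*, named after its values were seen, had -1.18 (SE 0.35, adjusted p = 0.119).

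**Figure D3:**
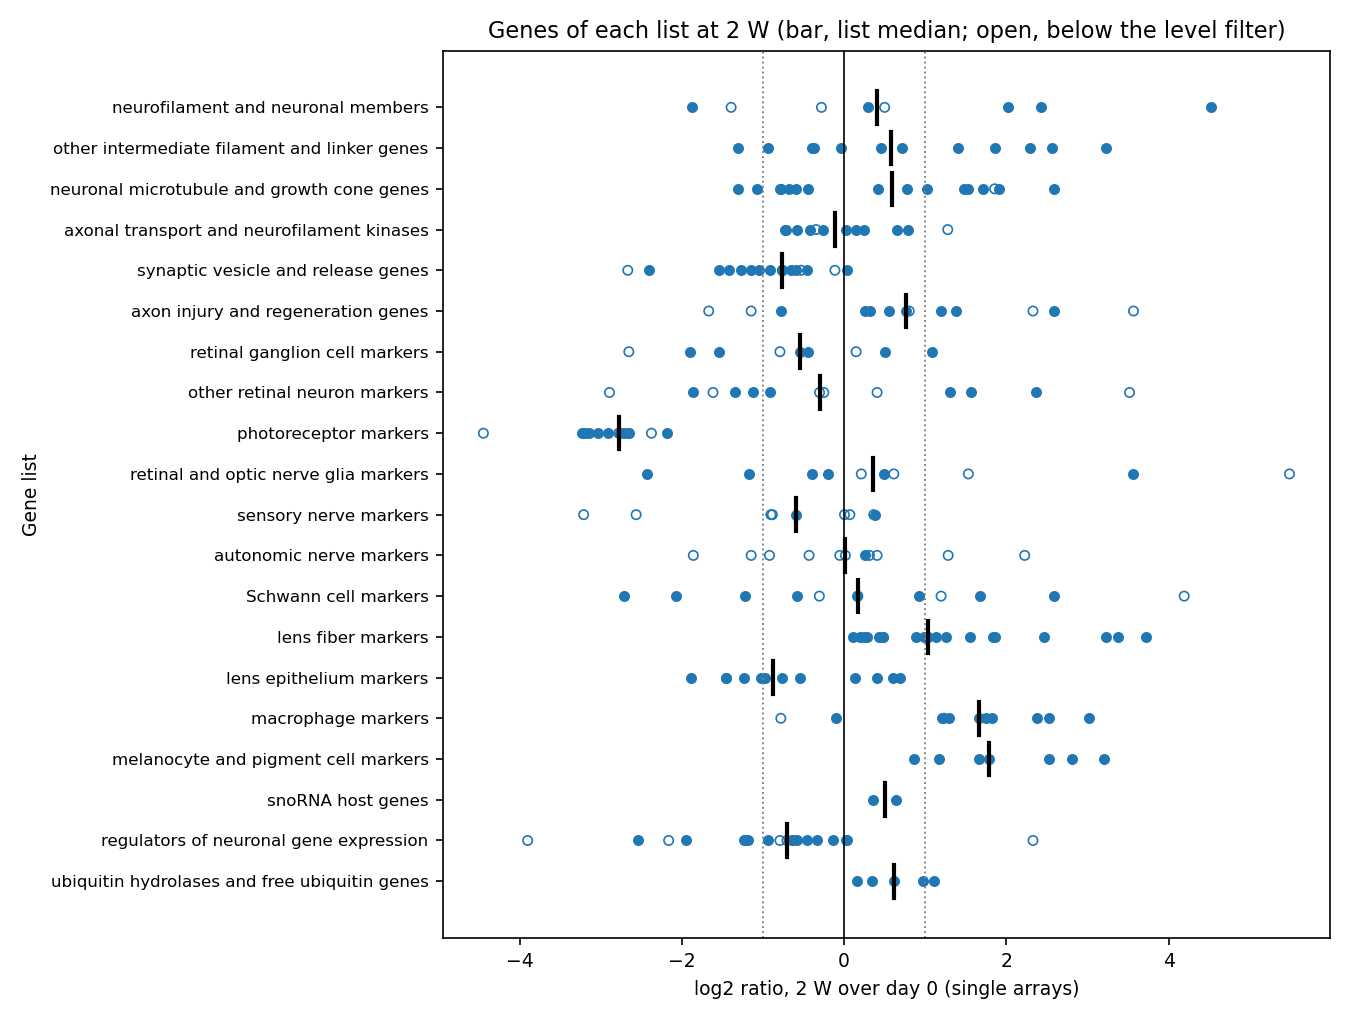
log2 ratio of 2 W over day 0 (single arrays, each divided by its mean) for the measured genes of each list, 1 point per gene at its probe set of highest level, open where below the level filter; bars mark list medians and dotted lines the 2.0-fold and 0.5-fold rules. In the top row *Nefh* lies at 4.52 and *Nefl* at -1.88; all lens fiber genes lie above 0 with this scaling (12 of 19 on the values as deposited) and all photoreceptor genes below -1.

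Of 19 lens fiber genes measured, 19 had a 2 W log2 ratio above 0 (median 1.03), but 15 with quantile scaling and 12 on the values as deposited (median 0.46). With mean scaling 10 were over 2.0-fold and 0 under 0.5-fold, where 12.0% and 14.7% of all genes were. At 1 W, 1 of the 19 was over, where 8.98% of all genes were, and 4 were under. Their scaled levels summed to 364 at day 0, to 405 and 350 in the 1 W replicates, and to 684 at 2 W. *Cryba1* and *Crybb3*, beta crystallins of the fibers, had 2 W log2 ratios of 0.20 and 0.43 with mean scaling. Their deposited intensities were lower at 2 W than at day 0. *Bfsp2* had log2 ratios of 0.51 and then 1.85 (SE 0.14, limma adjusted p = 0.0553). *Bfsp1*, named after its values were seen, was like *Snhg11* lower at 1 W and higher at 2 W, with intensities of 790.2 at day 0, 212.6 and 120.6 at 1 W, and finally 4987 at 2 W. Of the 12 other intermediate filament and linker genes, which hold these fiber genes and vimentin, 5 were over and 1 under at 2 W, with *Vim* at 0.46. Lens epithelium genes had 0 over and 5 under of 12. Of 11 macrophage genes 9, and of 7 pigment cell genes 6, were over 2.0-fold at each time, and of 10 glial genes of retina and optic nerve 3 were over and 2 under at 2 W. Of the 159 genes of these 19 lists at or above the filter, 0 passed limma at either time. At an unadjusted p under 0.05, 1 W had 32 with a higher level (20.1%) and 19 with a lower one (11.9%), where 8.21% and 9.66% of all tested probe sets were. In the same way 2 W had 44 (27.7%) and 30 (18.9%), where 9.01% and 21.9% were. The list shares count genes, each at its brightest probe set, and the others count every tested probe set. These are unlike units, so the gap between them was not read as a result. The part of lens fiber, macrophage or pigment cells in the 2 W levels of *Nefh*, *Uchl1* and *Snhg11* was not tested.

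Among 10455 genes at or above the filter, the profiles nearest to *Nefh* over the 3 arrays after surgery (Euclidean distance between log2 ratios) were those of *Tgm1* (0.93), *Serf1* (0.94), *Col12a1* (1.23), *Cldn11* (1.34) and *Mip* (1.35). *Mip*, the lens fiber aquaporin, had intensities of 940.7 at day 0, 2976 and 1139 at 1 W, then 8357 at 2 W, and its replicates at 1 W were farther apart than those of *Nefh*. Those nearest to *Snhg11* were *Fam89a* (0.87), *Apba1* (1.09), *Sh3bgr* (1.10), *Lenep* (1.25) and *Fabp5* (1.35). *Apba1*, an adaptor protein of neuronal synapses, had intensities of 78.5 at day 0, 51.5 and 44.2 at 1 W, and finally 248.6 at 2 W. *Lenep*, a lens epithelial protein, had intensities of 415.4 at day 0, 276.5 and 154.6 at 1 W, then 2209 at 2 W, and *Fabp5*, a fatty acid binding protein, had 5226, then 2189 and 1331, then 9968. Of the 10 nearest genes, those on any of the lists were *Mip* and *Cldn11*, a myelin tight junction protein on the glial list. The 3 arrays are few, and these distances are a description.

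**Figure D4:**
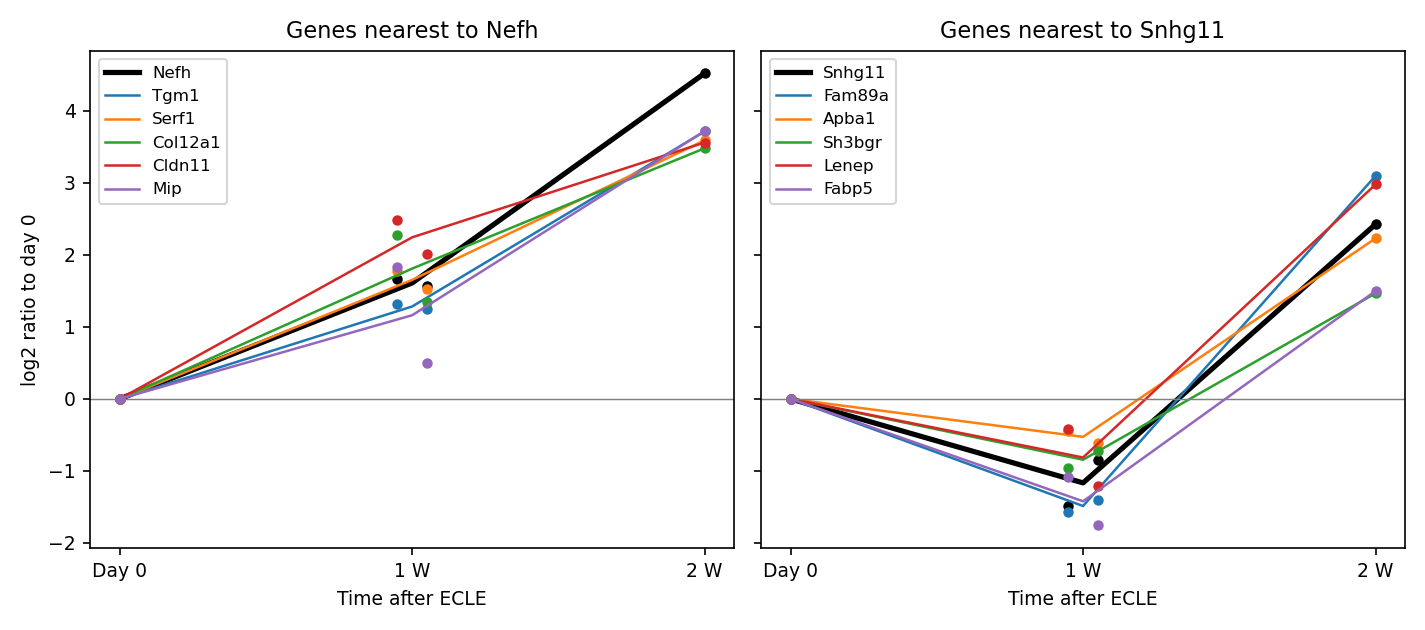
log2 ratio to day 0 of *Nefh* (left) and *Snhg11* (right), in black, and of the 5 genes nearest to each, against time after ECLE. Points are single arrays and lines pass through the mean of both 1 W arrays; the genes near *Nefh* lay above 0 at each time and those near *Snhg11* lay below 0 at 1 W and above 1 at 2 W.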

How the data were processed

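RNA of the 4 lens capsule samples was labeled and hybridized by the authors, and the deposited values are linear intensities per probe set, made with Affymetrix Expression Console per the submitters' processing notes. Neither the summary algorithm nor a scaling target is stated in the sources used here. Control probe sets (57 of 31099) were left out, each array was divided by its mean intensity, and log2 was taken. The methods name division by the array average or by control values, and which of them was used is not stated. The level filter was the 40th percentile of the mean log2 value, and the 18625 probe sets that reached it entered limma 3.58.1 under R 4.3.3 (lmFit, eBayes with intensity trend, 3 groups, 2-sided, Benjamini-Hochberg over all of them, threshold 0.05), with 1 residual and 3.12 prior degrees of freedom. The fold rules, over 2.0 and under 0.5, are those of the methods and were counted over all probe sets. limma was also tested on simulated data. Arrays give no read depth, and their number limits the precision.

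Names come from the platform annotation (20826 probe sets with 1 symbol, 436 with several, 9780 with none), of which 20758 matched RefSeq by gene identifier. A gene in a list or among the nearest profiles is represented by its probe set of highest mean level. The members, the 19 further gene lists (members left out of them) and all settings were chosen with earlier results of these data known. Named were all member probe sets, of a list the genes passing limma or otherwise its 2 brightest (several cell type lists are given by their counts alone), and the 5 nearest profiles of *Nefh* and *Snhg11*. Other scalings, a floor, other filters and variance models, a linear mean at 1 W and leaving out each 1 W array were tried. Tables and figures were made with Python 3.11.15, pandas 2.3.3, numpy 2.4.6 and matplotlib 3.10.9.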

Additional observations from a re-analysis of the deposited data

How the results depend on the processing

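Of 294 recomputed values, 225 stayed within the spread between replicates or on their side of the threshold, 66 moved and 3 reversed. In all 11 changed sign, as some values near 0 did so within that spread or were counted as moved. One was *Nefl* 1370059_at for 2 W over 1 W, from -0.24 to 0.47 without replicate 2. Among the 6 genes not chosen by their values, the number of probe sets passing limma at 2 W was 0, and became 1 (*Uchl1*) with median scaling, with 75th percentile scaling and on the values as deposited (adjusted p = 0.0134, 0.0492 and 0.02). Its adjusted p over all alternatives ran from 0.0134 to 0.149. Scaling also moved the calls among all probe sets at 2 W from 9 to 1631 (median), 399 (75th percentile), 0 (quantile) and 7974 (as deposited), where the median log2 ratio was 0.01, 0.05, -0.02 and -0.83. Without an intensity trend there were 0 calls in every comparison. At 1 W, 406 (median) and 250 (as deposited) were called in place of 9, and for 2 W over 1 W 209 and 4421 in place of 0. Probe sets of the 6 genes over 2.0-fold at 1 W numbered 1, but 2 with median scaling and 0 with a floor at the 20th percentile, and from 1 to 2 without either 1 W replicate. At 2 W they numbered 2, but 1 with the floor. Under 0.5-fold at 1 W were 4, but 3 with median, 75th percentile or quantile scaling and without replicate 1. Under 0.5-fold at 2 W were 4 with every scaling and with the floor. The dim *Gap43* probe set reversed with the floor (log2 ratio -0.12 at 1 W and -0.036 at 2 W), and *Snhg11* 1392823_at ran from -2.95 to 0.42 at 1 W without either replicate, reversing without replicate 1. *Nefh* kept its direction under all of them, with a 2 W log2 ratio from 3.95 to 4.84. As it was chosen for its late rise on these same arrays, this is a description only. Where not shown by the construction of an alternative, the cause was not tested. No paired analysis was possible because each rat was killed at a single time, so arrays of different times share no animal. Only 1 W has 2 replicates. Without a 1 W array no residual degree of freedom remains, so those values have no test.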
